A study of Homo sapiens with 14 samples.

Results

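The genes described here are 30 direct transcriptional targets of the tumour suppressor p53, chosen by symbol from general knowledge of the pathway, with earlier results of these data known. All 30 were found once among the 57445 gene entries of the stem cell and day 11 count tables, and all 30 passed the filter on low counts. RNA was sequenced from H9 (WA-09), an established human pluripotent stem cell line, before (hPSC, day 0) and during differentiation toward midbrain dopamine neurons, in 14 libraries, 2 for each of 7 groups. The day 11 groups received the GSK3 inhibitor CHIR99021 (CHIR), which activates WNT signalling, at 0.7, 3, 5 or 7.5 µM from day 4, and all of them had 0.7 µM before that and 3 µM in the medium of the last day, per the labels. Until day 7 they also had Sonic hedgehog, which induces the floor plate, and the inhibitors LDN (of BMP signalling) and SB431542 (of TGF-beta signalling). The remaining groups were cultures given 7.5 µM and taken at day 16 and day 30. All groups come from 1 cell line, and the labels do not say whether the libraries numbered 1 and 2 are separate cultures, so a p-value here speaks only to the spread between the libraries, which may be technical.

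p53 is a transcription factor that is kept scarce by the ubiquitin ligase MDM2 and is stabilised by DNA damage and other stress. It then binds response elements near its targets, which arrest the cell cycle, start apoptosis, repair DNA, adjust metabolism and, through MDM2 and the phosphatase PPM1D, shut p53 off again. Pluripotent stem cells are known for undergoing apoptosis readily after damage. Many targets also answer to other inputs, among them the integrated stress response for SESN2 and GDF15, so their RNA is not a measure of p53 activity alone.

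The response element itself is shown for the 4 members in which a full element was found near a start site in RefSeq (GRCh38.p14). A full element is a pair of adjoining p53 half-sites at most 1 base apart. The window searched ran from 250 bases before to 50 bases after each listed start site. Capitals mark the half-sites; any base between them is in lower case.
FAS, chr10:88991279-88991358 (+): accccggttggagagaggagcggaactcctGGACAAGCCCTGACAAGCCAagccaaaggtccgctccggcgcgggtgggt
DDB2, chr11:47214949-47215023 (+): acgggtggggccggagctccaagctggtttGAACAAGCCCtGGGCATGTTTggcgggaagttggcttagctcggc
MDM2, chr12:68808893-68808972 (+): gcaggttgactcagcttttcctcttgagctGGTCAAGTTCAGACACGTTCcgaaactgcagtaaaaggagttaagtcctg
AEN, chr15:88621276-88621355 (+): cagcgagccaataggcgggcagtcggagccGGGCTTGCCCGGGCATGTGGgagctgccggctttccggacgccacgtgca
In DDB2 both half-sites match the consensus with 0 mismatches, and in FAS, MDM2 and AEN the pair has 2 mismatches in all, the most allowed, at positions other than the invariant C and G of each half-site. The elements start 122 bases before a listed start site in FAS, 94 or 101 in MDM2 and 34 in AEN, and just after one in DDB2. FAS, MDM2 and DDB2 have further listed start sites whose windows lack the element. Those start sites lie upstream of the element, which is thus downstream of them. The element is its own reverse complement in form, so both strands are covered. Of the 25 members with a promoter entry, 4 (16%) held it, against 0.674% of 27305 genes in the table, and at least 1 perfect half-site was in 28% of these members against 8.06% of genes. GADD45A, PHLDA3, RRM2B, TNFRSF10B and TP53INP1 had no entry. A match in this window is a description and not a measured binding site.

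The libraries up to day 11 held between 20.5 and 44.8 M counts in genes. Levels are given as CPM, a gene's count scaled to a common total of gene counts. The day 11 cultures carried neural progenitor markers at a summed 6409 to 9991 CPM, against 642 and 1024 CPM in hPSC, and pluripotency markers at 1217 to 2066 CPM, against 5574 and 5970 CPM in hPSC. These sums do not show each marker. From 0.7 to 7.5 µM the progenitor marker SOX2 was at 198.6, 157, 132.3 and 210.1 CPM in replicate 1, below both hPSC libraries (299.1 and 228.5 CPM). In replicate 2 it was at 443.5, 328, 295 and 228.5 CPM. The replicate 1 libraries at 0.7, 3 and 5 µM stand apart: their 100 most abundant genes took 28.8% to 35.4% of counts, against 16.5% to 19.9% in the other hPSC and day 11 libraries. Deviations of same-numbered libraries from their group means correlated at 0.64 to 0.86 across genes between day 11 groups, and the sample codes share a prefix within each number. Dose results at day 11 are therefore given in 2 forms, with no block and with a block for replicate number. Values below run from the lowest dose to the highest, and in hPSC from replicate 1 to replicate 2. In bulk RNA, fewer cells that express a gene and less RNA per cell cannot be told apart.

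The members that restrain the cell cycle mostly lay above hPSC at day 11. CDKN1A, which encodes the cyclin-dependent kinase inhibitor p21, was at 24.4, 160.1, 155 and 65.8 CPM in replicate 1 and 151, 284, 332 and 83.1 CPM in replicate 2, against 26.2 and 37.4 CPM in hPSC. Its level was highest at 3 µM in replicate 1 and at 5 µM in replicate 2, and at 0.7 µM replicate 1 was at the hPSC level while replicate 2 was not. PLK2, a p53-induced polo-like kinase, was at 29.1, 84.7, 73.8 and 77.1 CPM in replicate 1 and 112, 143, 133 and 59.3 CPM in replicate 2, against 7.83 and 8.46 CPM in hPSC. PLK3, a stress-responsive relative of PLK2, was at 9.65, 24.2, 15.5 and 10.4 CPM in replicate 1 and 32.2, 50.2, 40.3 and 7.45 CPM in replicate 2, against 4.77 and 3.75 CPM in hPSC. Every day 11 library lay above both hPSC libraries for these 2 kinases. BTG2, an antiproliferative cofactor, was at 33.6, 65.8, 70.2 and 63.6 CPM in replicate 1 and 156, 151, 180.4 and 97.2 CPM in replicate 2, against 21.7 and 29.2 CPM in hPSC. GADD45A, which acts in growth arrest after damage, was at 13.7, 24.6, 32.4 and 38.1 CPM in replicate 1 and 31.01, 52.9, 63.8 and 33.6 CPM in replicate 2, against 10.4 and 12.4 CPM in hPSC. For both genes, too, all 8 day 11 libraries exceeded the hPSC libraries. The share of all genes separated from hPSC in this way was not counted. With the block, 46.1% of genes at 0.7 µM and 34.8% at 7.5 µM passed in the comparison with hPSC given below.

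**Figure D1:**
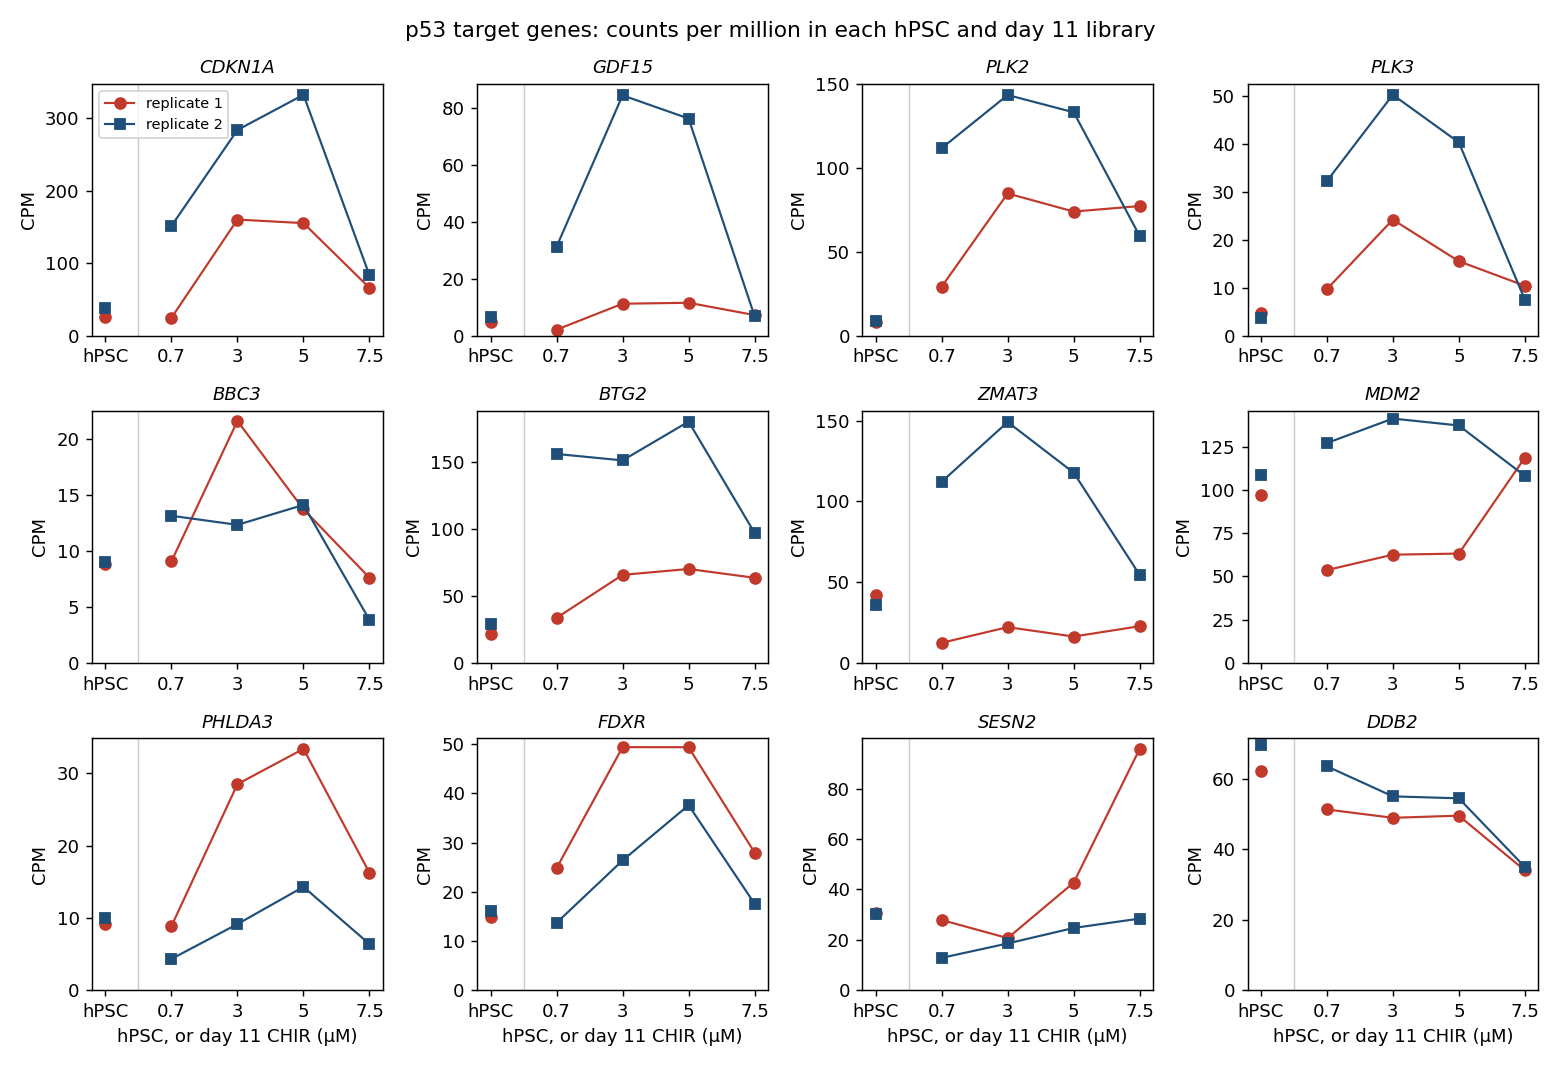
CPM (linear axis) of 12 p53 target genes in hPSC and in day 11 cultures by CHIR dose, with 1 point per library, replicate 1 in red circles and replicate 2 in blue squares. CDKN1A, GDF15, PLK3, PHLDA3 and FDXR are higher at 3 and 5 µM than at 0.7 µM and at 7.5 µM in both replicates, while the replicates differ in level.

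Among the feedback members, MDM2 and PPM1D lay on both sides of their hPSC level at day 11. CCNG1 lay below both hPSC libraries at every dose in both replicates, and the share of all genes that did so was not counted. MDM2, the ligase that degrades p53, was at 53.7, 62.6, 63.3 and 119 CPM in replicate 1 and 127, 141, 137 and 108 CPM in replicate 2, against 97.4 and 109 CPM in hPSC. PPM1D, a phosphatase that reverses damage signalling, ranged from 10.1 to 26.4 CPM at day 11 against 19.4 and 17.5 CPM in hPSC. CCNG1, a cyclin that works with the phosphatase PP2A on MDM2, was at 280.2, 366, 387 and 389 CPM in replicate 1 and 835, 791, 729 and 519.8 CPM in replicate 2, against 916 and 855 CPM in hPSC, and was the most abundant member per kilobase of exon at day 11 (174 CPM per kb, against 51.5 for CDKN1A, the next, and 2.16 for FAS, the lowest). Replicate 2 exceeded replicate 1 for CCNG1 at every dose.

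Of the members linked to apoptosis, the BCL2-family genes were higher at 3 and 5 µM than at 7.5 µM. BBC3, which encodes the killer protein PUMA, was at 9.06, 21.6, 13.7 and 7.60 CPM in replicate 1 and 13.1, 12.3, 14.1 and 3.83 CPM in replicate 2, against 8.79 and 8.98 CPM in hPSC. The pore-forming effector BAX was at 87.5, 128, 128 and 83.2 CPM in replicate 1 and 46.6, 78.96, 87.9 and 57.4 CPM in replicate 2, against 75.3 and 67.4 CPM in hPSC. The death receptor gene FAS, whose element is printed above, was at 3.60, 3.68, 5.63 and 7.40 CPM in replicate 1 and 13.7, 13.4, 15.04 and 11.04 CPM in replicate 2, against 4.71 and 2.67 CPM in hPSC. EDA2R, a receptor of the TNF family, was at 4.87, 7.50, 8.28 and 16.5 CPM in replicate 1 and 35.8, 38.7, 40.4 and 23.3 CPM in replicate 2, against 25.7 and 27.2 CPM in hPSC. In both receptor genes replicate 2 exceeded replicate 1 at every dose. PHLDA3, a repressor of the kinase AKT whose exons overlap another gene of the same strand over 19.1% of their length, was at 8.87, 28.5, 33.4 and 16.2 CPM in replicate 1 and 4.33, 9.16, 14.3 and 6.39 CPM in replicate 2, against 9.11 and 10.1 CPM in hPSC. TRIAP1, a small inhibitor of apoptosis, was at 55.5, 70.4, 73.7 and 62.5 CPM in replicate 1 and 30.03, 33.03, 38.8 and 41.8 CPM in replicate 2, against 49.7 and 60.5 CPM in hPSC, and TP53I3, a quinone oxidoreductase, was at 36.2, 23.1, 30.9 and 38.3 CPM in replicate 1 and 12.4, 16.4, 21.2 and 23.9 CPM in replicate 2, against 16.3 and 14.7 CPM in hPSC. For these last 3 genes the order was the opposite, with replicate 1 higher at every dose. TNFRSF10B, the TRAIL receptor DR5, ranged from 80.9 to 263 CPM at day 11 against 170.1 and 184 CPM in hPSC. PERP, a membrane protein of desmosomes and apoptosis, ranged from 44.4 to 109.7 CPM at day 11 against 90.7 and 78.3 CPM in hPSC. The nuclease gene AEN ranged from 48.8 to 122 CPM at day 11 against 112 and 144 CPM in hPSC, and EI24, an endoplasmic reticulum protein, from 83.7 to 176 CPM at day 11 against 175 and 221 CPM in hPSC. These 4 ranges all include values below both hPSC libraries.

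The DNA repair members were at or below their hPSC level in most libraries. DDB2, the damage sensor of nucleotide excision repair and the member with the perfect element, was at 51.2, 48.9, 49.5 and 33.98 CPM in replicate 1 and 63.5, 54.97, 54.4 and 34.95 CPM in replicate 2, against 62.1 and 69.6 CPM in hPSC. It was lowest at 7.5 µM in both replicates. RRM2B, a subunit of ribonucleotide reductase, was at 15.6, 17.8, 19.4 and 39.5 CPM in replicate 1 and 84.1, 95.8, 108 and 83.8 CPM in replicate 2, against 104 and 91.6 CPM in hPSC. POLH, the polymerase that copies past UV lesions, was at 3.46, 7.43, 6.45 and 11.7 CPM in replicate 1 and 21.1, 16.4, 17.96 and 19.8 CPM in replicate 2, against 15.02 and 18.4 CPM in hPSC. In both of these genes the replicates differed by more than the doses did within replicate 2. XPC, a lesion recogniser, ranged from 33.4 to 96.2 CPM at day 11 against 64.7 and 74.2 CPM in hPSC, but 39% of its exon length overlaps genes on the other strand, and the counting strand is not given in the sources used here.

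Among the metabolic and secreted members, 1 library held the highest SESN2 value and replicate 2 held most of the high GDF15 and ZMAT3 values. SESN2, a stress-induced inhibitor of mTORC1 signalling, was at 27.9, 20.7, 42.7 and 95.8 CPM in replicate 1 and 12.8, 18.6, 24.7 and 28.4 CPM in replicate 2, against 30.5 and 30.2 CPM in hPSC. Its highest value was in replicate 1 at 7.5 µM, the library with the highest summed CPM of 12 integrated stress response genes (3376, against 1361 to 2198 in the other day 11 libraries); the part of that difference in the SESN2 value was not tested. SESN1, its relative, ranged from 20.6 to 97.7 CPM at day 11 against 50.01 and 54.99 CPM in hPSC. FDXR, a mitochondrial reductase that passes electrons to ferredoxin, was at 24.8, 49.4, 49.4 and 27.98 CPM in replicate 1 and 13.7, 26.4, 37.6 and 17.6 CPM in replicate 2, against 14.9 and 16.04 CPM in hPSC. GDF15, a secreted stress cytokine, was at 2.05, 11.2, 11.5 and 7.19 CPM in replicate 1 and 31.2, 84.4, 76.3 and 6.80 CPM in replicate 2, against 4.61 and 6.62 CPM in hPSC. GDF15 in replicate 2 was at the hPSC level at 7.5 µM and far above it at the other doses. ZMAT3, an RNA-binding protein, was at 12.4, 22.1, 16.3 and 22.7 CPM in replicate 1 and 112, 149, 118 and 54.4 CPM in replicate 2, against 42.2 and 35.6 CPM in hPSC. SPATA18, which acts in mitochondrial quality control, was at 6.48, 4.62, 8.09 and 15.3 CPM in replicate 1 and 18.03, 20.5, 24.4 and 26.6 CPM in replicate 2, against 5.17 and 4.51 CPM in hPSC, and TP53INP1, an autophagy and stress protein, ranged from 28.3 to 90.2 CPM at day 11 against 78.4 and 72.7 CPM in hPSC. For ZMAT3 and SPATA18 the order of the doses was not the same in both replicates.

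Against 0.7 µM, no member passed at any dose without the block. At 7.5 µM against 0.7 µM, 0 of 30 members and 0% of 18709 genes passed (edgeR's quasi-likelihood test, adjusted p under 0.05), 1641 genes had an unadjusted p under 0.05, and DESeq2 called 0 members and 657 genes. With the replicate number as a block 2 of 30 members passed, against 10.5% of genes, so the members' share is below the background. SESN2 rose (log2 fold change 1.33, SE 0.31, adjusted p = 0.0241, edgeR) and DDB2 fell by 0.91 on the log2 scale (SE 0.24, adjusted p = 0.0399). CDKN1A differed by -0.07 (SE 0.48) and PLK2 by 0.01 (SE 0.44), but each value joins opposite changes in the 2 replicates. The log2 ratio of CPM at 7.5 over 0.7 µM was 1.43 in replicate 1 and -0.86 in replicate 2 for CDKN1A. For PLK2 it was 1.41 and -0.91. With the correction for exon length and GC content described below the same 2 genes passed, against 13.2% of genes. The blocked count depends on single libraries: without replicate 2 at 7.5 µM 11 members passed (10 higher and 1 lower), as did 5613 of 19280 genes, and without replicate 1 at 7.5 µM 5 passed (all lower), as did 2184 of 19249 genes. Without replicate 1 at 0.7 µM 1 member and 754 of 19700 genes passed, and without replicate 2 at 0.7 µM 0 members and 822 of 19396 genes.

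At 5 µM against 0.7 µM, 0 of 30 members and 0% of genes passed without the block (567 genes had an unadjusted p under 0.05, and DESeq2 called 0 members and 129 genes). With it 2 of 30 members rose, against 1.13% of genes called in either direction and 0.706% called higher: PHLDA3 (log2 fold change 1.88, SE 0.30, adjusted p = 0.0192, edgeR) and FDXR (1.31, SE 0.25, adjusted p = 0.0408). CDKN1A differed by 1.76 (SE 0.48, adjusted p = 0.145) and GDF15 by 1.67 (SE 0.67, adjusted p = 0.392), neither of which passed. Without replicate 1 at 0.7 µM, or without either replicate at 5 µM, fewer calls were made over all genes. Those of PHLDA3 and FDXR were among the calls lost. After a correction for exon length and GC content 1 member was called (PHLDA3, against 1.04% of genes). The median log2 fold change of the members was 0.44, against 0.02 over all genes. At 3 µM against 0.7 µM, 0 members passed with or without the block, against 0.0214% of genes with it and 0% without it (276 genes had an unadjusted p under 0.05 without it, and DESeq2 called 0 members). PHLDA3 had the value 1.58 and CDKN1A 1.80 there (adjusted p = 0.341 for CDKN1A, blocked edgeR fit).

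Within each replicate number, 23 of 30 members were higher at 5 than at 0.7 µM in both numbers, where 23.4% of all genes were. At 3 µM the count was 17, against 18.4% of genes, and at 7.5 µM it was 13, against 41.7% of genes. The direction at 7.5 µM was the same in both numbers for 15 of 30 members, against 63.2% of genes. All 3 comparisons share the 0.7 µM libraries, and no test over the list was made. For 10 members the highest day 11 value fell at 3 or 5 µM in both numbers, against 13.2% of genes, and for 7 it fell at 7.5 µM in both, against 33.3% of genes.

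**Figure D2:**
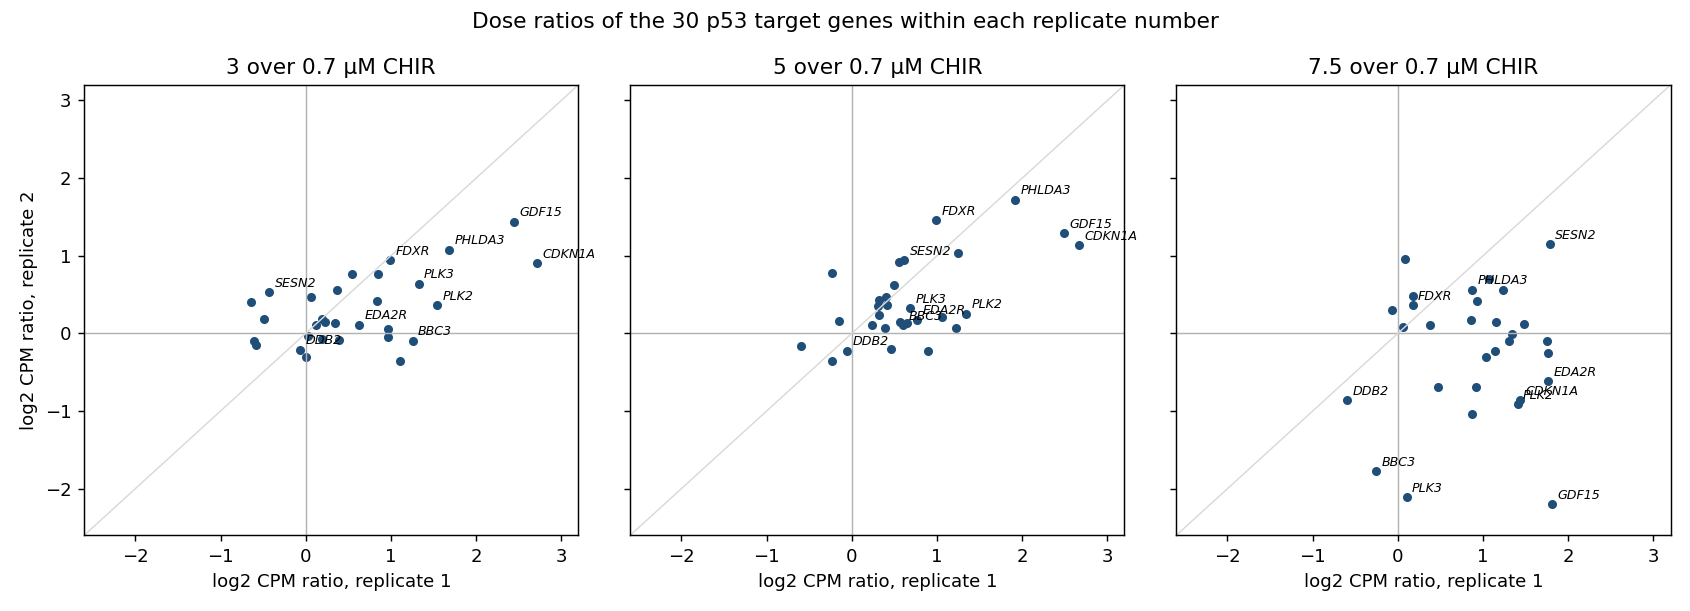
Log2 ratios of CPM at 3, 5 or 7.5 µM CHIR over 0.7 µM, replicate 1 on the x axis and replicate 2 on the y axis, 1 point per p53 target gene, with the line of equal ratios. At 5 µM 23 of 30 points lie above 0 on both axes, and at 7.5 µM 13 do.

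The step between the upper doses was compared after the values had been seen. At 7.5 µM against 5 µM, 0 of 30 members passed without the block, against 0% of genes (1168 genes had an unadjusted p under 0.05, and DESeq2 called 0 members and 203 genes). With the block 4 of 30 members fell, against 6.53% of genes called in either direction and 3.3% called lower. The log2 fold change was -1.83 for CDKN1A (SE 0.47, adjusted p = 0.0485, edgeR), -1.59 for BBC3 (SE 0.41, adjusted p = 0.0479), -1.21 for FDXR (SE 0.25, adjusted p = 0.0294) and -1.35 for PHLDA3 (SE 0.30, adjusted p = 0.0343). PLK3 (-1.64, adjusted p = 0.0536) and GDF15 (-1.96, adjusted p = 0.102) did not pass. None of these 4 calls held after the correction for exon length and GC content (0 members, against 3.52% of genes). Without either replicate at 5 µM most calls over all genes were lost, those of these 4 members among them. Without replicate 1 at 7.5 µM 6 members passed (all lower), as did 991 of 19249 genes, and without replicate 2 at 7.5 µM 10 passed (5 higher and 5 lower), as did 5828 of 19280 genes. Over all 4 doses, the slope per doubling of CHIR passed for 0 members in both fits, against 0.134% of genes without the block and 1.19% with it (DESeq2 called 0 members without the block and 1 with it).

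More members passed for replicate number than for any dose comparison. In the fit of replicate 1 against replicate 2 across the 4 doses, 22 of 30 members passed, 7 higher and 15 lower in replicate 1, against 55.6% of genes (26.9% higher and 28.7% lower). The members lower in replicate 1 included ZMAT3 (log2 fold change -2.30, SE 0.29, adjusted p = 0.00044, edgeR), GDF15 (-2.18, SE 0.52), RRM2B (-1.90, SE 0.24), EDA2R (-1.79, SE 0.34) and CDKN1A (-0.98, SE 0.34). Those higher were PHLDA3 (1.52, SE 0.21), SESN2 (1.16, SE 0.22), TRIAP1 (1.08, SE 0.19), TP53I3 (1.02, SE 0.20), FDXR (0.91, SE 0.18), BAX (0.88, SE 0.17) and AEN (0.76, SE 0.18). BBC3, PLK2, PLK3, XPC, DDB2, GADD45A, PPM1D and EI24 did not pass. Replicate 1 was below replicate 2 at all 4 doses for 14 members, against 38.5% of genes, and above it at all 4 for 7, against 26.2% of genes. All 4 replicate 1 libraries lay below all 4 replicate 2 libraries for 12 members, against 20.9% of genes, and above them for TRIAP1 alone, against 12.8% of genes.

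The replicate differences over all genes went with exon length and base composition. Over all genes the median log2 ratio of replicate 1 over replicate 2 was 0.71 in the fifth with the shortest exons and -0.70 in the fifth with the longest, and -0.74 in the fifth lowest in GC and 0.65 in the fifth highest. Across the 30 members the fold change correlated with GC percent at r = 0.51 and with log2 exon length at r = -0.33, as a description. With a correction for both, 16 members passed, 4 higher and 12 lower, against 47.2% of genes (24% higher and 23.2% lower). GDF15 (-3.20) and CDKN1A (-1.62) were further apart. Of the members higher in replicate 1, BAX (0.08), FDXR (0.20), TP53I3 (0.20) and SESN2 (0.51) no longer passed. Of those lower, SESN1, TP53INP1, CCNG1 and PERP no longer passed, while PLK3 (-1.44) and GADD45A (-1.12) now did. MDM2 passed in both fits in opposite directions, at 0.41 with the correction and at -0.65 without it. The median member ratio was -1.21, -0.97 and -0.95 at 0.7, 3 and 5 µM and 0.10 at 7.5 µM, against -0.03, -0.40, -0.43 and -0.07 over all genes. A dose slope that differed between the replicate numbers was called for 0 members, against 0% of genes (1196 had an unadjusted p under 0.05; DESeq2 called 0 members and 17 genes).

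**Figure D3:**
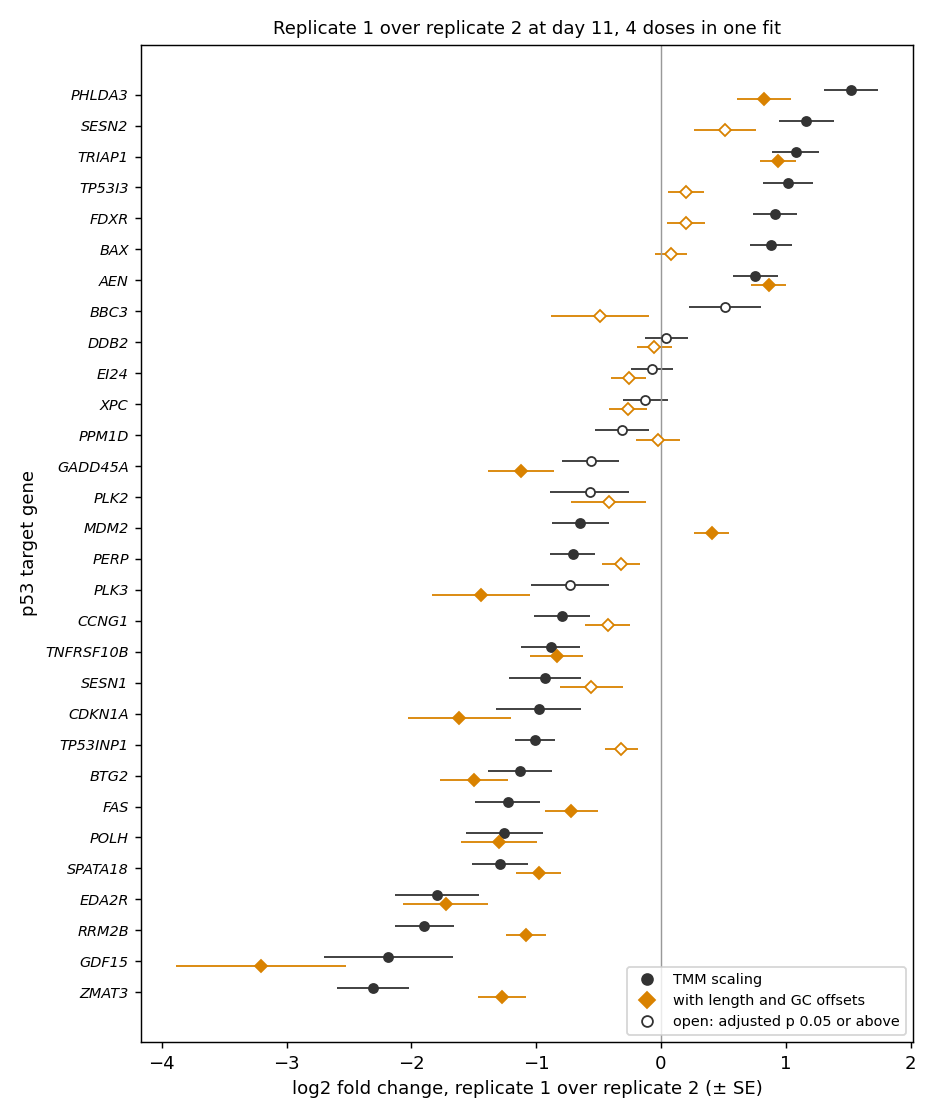
Log2 fold change of replicate 1 over replicate 2 at day 11 with its standard error for the 30 p53 target genes, in the fit with TMM scaling (dark circles) and with added length and GC offsets (orange diamonds); open symbols have an adjusted p of 0.05 or above. The values run from 1.52 for PHLDA3 to -2.30 for ZMAT3 under TMM scaling, and MDM2 lies on opposite sides of 0 in the 2 fits.

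Genes of other pathways differed by replicate number as well, in a fit that called 55.6% of all genes (26.9% higher and 28.7% lower). Of 12 hypoxia genes 11 were lower in replicate 1, with a summed 394 to 1065 CPM in replicate 1 and 1911 to 4952 CPM in replicate 2. VEGFA, the angiogenic growth factor, differed by -2.28 and HK2, a hexokinase, by -2.85. Of 20 tested regulators of p53, 4 were called higher and 10 lower, among those lower the damage kinase gene ATM (log2 fold change -1.98, SE 0.22). Of 35 other p53 targets tested, 6 were called higher and 18 lower. TRIM22, an antiviral ubiquitin ligase, differed most of these (-3.60, SE 0.37). Their part in the members' differences was not tested.

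For 7.5 against 0.7 µM, the fit without the block called 0 genes of the lists that follow, as it called 0 of all genes. With the block 10.5% of all genes were called, 1056 of 18709 higher and 911 lower. In that fit 5 of 35 other p53 targets rose and 0 fell, among them E2F7 (log2 fold change 1.90), DRAM1 (1.84), PANK1 (1.58) and CES2 (1.08). E2F7, an atypical E2F repressor, was at 11.3, 10.7, 11.1 and 72.7 CPM in replicate 1 and 27.3, 21.2, 26.7 and 74.04 CPM in replicate 2, against 50.5 and 61.3 CPM in hPSC. The 15 genes of the G2 and M phases, which p53 is known to hold down, had 10 called higher and 0 lower, among them MKI67 (1.71) and CCNB1 (1.58). Of 20 regulators 0 were called, and of 12 integrated stress response genes 3 were called higher, TRIB3 (2.05), PSAT1 (1.99) and SLC7A11 (1.26). Of 12 hypoxia genes 4 were called lower.

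Against hPSC, few members passed without the block. At 0.7 µM 2 of 30 rose, against 11.4% of genes called in either direction and 5.31% called higher, namely PLK2 (log2 fold change 3.27, SE 0.63, adjusted p = 0.0174, edgeR) and PLK3 (2.46, SE 0.65, adjusted p = 0.0485). At 7.5 µM 1 of 30 rose, against 10.1% of genes called and 4.35% called higher, PLK2 (3.06, SE 0.62, adjusted p = 0.022). These counts are near or below the background. With any 1 library of a comparison left out, fewer calls were made over all genes. The calls of members then moved at 0.7 µM, and at 7.5 µM that of PLK2 was lost. CDKN1A against hPSC at 0.7 µM was -0.21 without replicate 2, against 1.62 with both.

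With a block for the replicate number within day 11, 10 of 30 members passed at each dose, against 46.1% of genes at 0.7 µM and 34.8% at 7.5 µM. At 0.7 µM PLK2 (3.13), PLK3 (2.31), BTG2 (1.77), SPATA18 (1.33), CDKN1A (1.32), FAS (1.15) and GADD45A (1.05) rose, and RRM2B (-1.24), AEN (-0.99) and EI24 (-0.95) fell. At 7.5 µM PLK2 (3.13), SPATA18 (2.08), GADD45A (1.70), BTG2 (1.65), FAS (1.32), CDKN1A (1.25), TP53I3 (0.97) and SESN2 (0.82) rose, and CCNG1 (-0.97) and DDB2 (-0.94) fell. Both shares of members are near or below these backgrounds, and both comparisons share the hPSC libraries. Without replicate 1 at 0.7, 3 and 5 µM, 10 members passed at 0.7 µM, all higher, as did 4968 of 20441 genes (2447 higher). In the same fit 10 passed at 7.5 µM, 8 higher and 2 lower, as did 5653 genes. Of 35 other p53 targets tested against hPSC without the block, 0 were called higher and 6 lower at 0.7 µM, and 0 higher and 3 lower at 7.5 µM. With the block 6 were called higher and 16 lower at 0.7 µM, and 9 higher and 10 lower at 7.5 µM. PMAIP1 of that list, which encodes the killer protein NOXA, was at 0.877, 1.28, 2.84 and 8.88 CPM in replicate 1 and 2.06, 2.54, 2.69 and 3.37 CPM in replicate 2, against 152 and 206 CPM in hPSC. It fell at 0.7 µM (log2 fold change -6.74, SE 0.73, adjusted p = 0.00334, edgeR without the block) and at 7.5 µM (-4.86, SE 0.67, adjusted p = 0.00579).

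**Figure D4:**
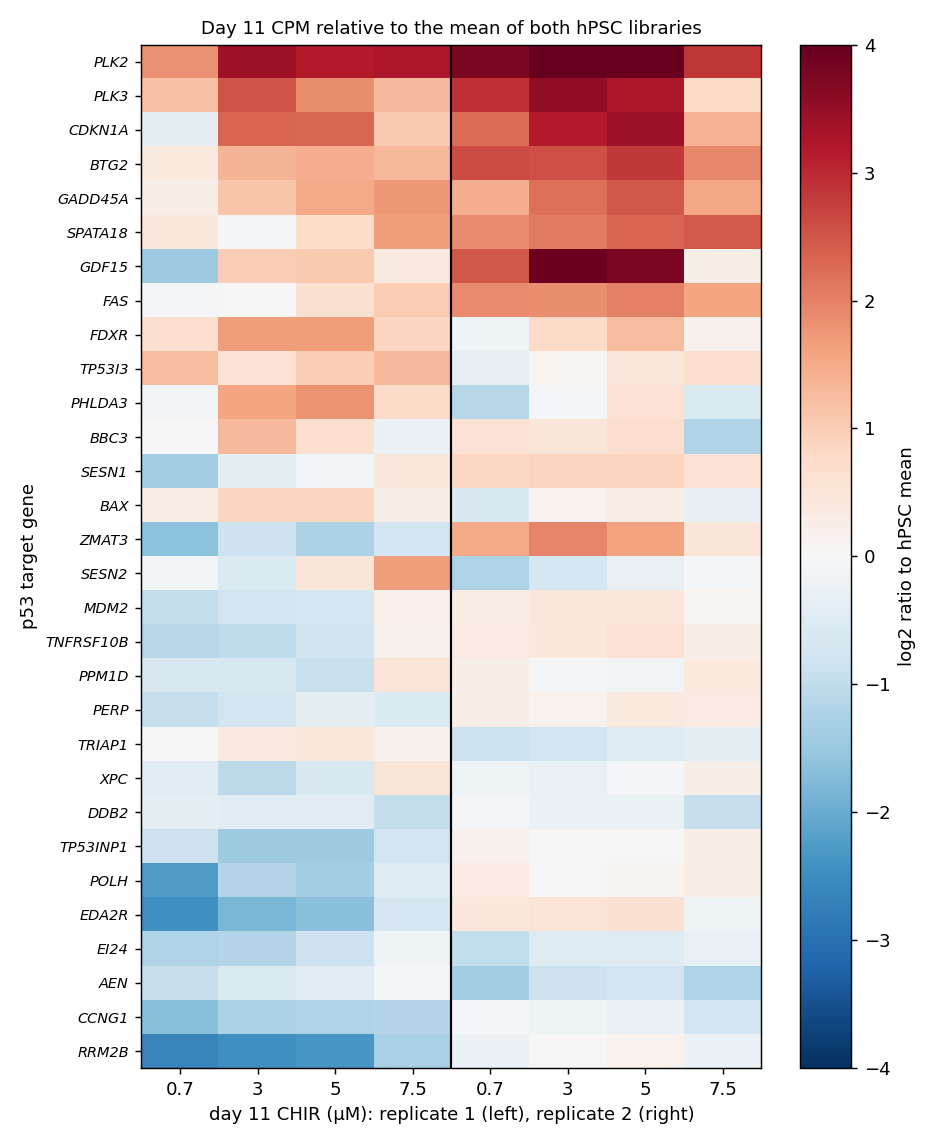
Heatmap of log2 ratios of day 11 CPM to the mean of both hPSC libraries, with 1 row per p53 target gene (ordered by mean ratio) and 1 column per day 11 library, replicate 1 left and replicate 2 right, doses from 0.7 to 7.5 µM. PLK2, the top row, is above hPSC in all 8 libraries, and RRM2B, the bottom row, is lowest in replicate 1.

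The day 16 and day 30 tables are not read here as levels of these genes. CDKN1A had 0.353 to 1.11 CPM in the 4 later libraries, against 65.8 and 83.1 CPM at day 11 and 7.5 µM. The ubiquitous genes ACTB (78.1 to 486 CPM) and GAPDH (71.0 to 290 CPM) were likewise far below day 11, and SOX2, a progenitor gene, had a count of 0 in all 4. The median ratio of the members' mean CPM there to that at day 11 and 7.5 µM was 0.0562, and DDB2 and POLH alone had a higher mean there than at day 11 and 7.5 µM. Whether the counting strand bears on this was not tested. For day 30 against day 16, 20 members could be tested and 0 passed with or without the block, against 11% of 15435 genes without it and 6.91% with it (3578 had an unadjusted p under 0.05; DESeq2 called 0 members and 1715 genes). Without day 16 replicate 1, more calls were made over all genes, and a member among them was higher at day 30. Without day 16 replicate 2, more calls were also made over all genes, members among them, and those members were lower at day 30. That fit rests on day 16 replicate 1 alone, which differs from the other later libraries. It had ACTB at 486 CPM and GAPDH at 290 CPM, against 78.1 to 81.6 CPM and 71.0 to 76.1 CPM in the others.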

How the data were processed

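The authors deposited raw whole-number counts for each gene, from RNA of H9 stem cells and their derivatives. Per the submitters' processing notes the build was hg19 and the tools included HTSeq 0.5.3, STAR 2.4.2a, DESeq2 1.12.4 and featureCounts 1.4.2. No source used here gives the library kit or the strand setting of the counting. Reads counted to no gene, 37.41% to 44.33% of counts before day 16, entered no library size. Gene counts were 20.5 to 44.8 M in those libraries and 5.41 to 6.34 M at days 16 and 30.

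Counts were tested with edgeR 4.0.16 (R 4.3.3; TMM, filterByExpr, robust quasi-likelihood), adjusted by Benjamini-Hochberg over 18709 genes at day 11, 19672 against hPSC and 15435 later, at 0.05. Standard errors are the fold change over the root of F. The main fits have no block; the replicate number pairs the day 11 libraries (correlations 0.64 to 0.86), not hPSC with day 11 (-0.11 to -0.18) or day 30 with day 16 (-0.22). The scripts were tested on simulated data that lacked the wide replicate differences of these libraries, so that test covers the code alone. Other settings were RLE factors, DESeq2 1.42.0, no low-count filter, left-out libraries and offsets for exon length and GC (GENCODE 29, joined by gene ID; added after seeing the data, as was 7.5 against 5 µM).

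Members and lists were chosen with earlier results of these data known. Every member is accounted for; values per library are given for members passing at day 11 (in the replicate comparison the 12 of largest fold change) and for the 8 of largest fold change against hPSC. Other lists have up to 4 passing members named, and some genes that the rule names are not reported here; MDM2, BAX, CES2 and further genes were named after their values were seen. Files give hg19 and promoters GRCh38.p14, which were not mixed.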

Additional observations from a re-analysis of the deposited data

How the results depend on the processing

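Counts of passing members at day 11 moved with the replicate block, as did those over all 18709 genes. For 7.5 against 0.7 µM, 0 genes were called without the block and 1967 with it. With the block, RLE factors gave 2015 and DESeq2 3006. In the same order these were 0, 211, 251 and 612 for 5 against 0.7 µM. They were 0, 4, 5 and 196 for 3 against 0.7 µM, and 0, 1221, 1359 and 2777 for 7.5 against 5 µM. Leaving out 1 library moved the gene counts too. Counts of members follow. For 7.5 against 0.7 µM the count was 0 without the block and 2 with it, 2 with the block and RLE factors, 4 with the block in DESeq2 and 2 with the block and length and GC offsets; leaving out 1 library gave 0 to 11. For 5 against 0.7 µM these were 0, 2, 2, 4 and 1, and 0 to 2 with 1 library left out. For 3 against 0.7 µM the blocked DESeq2 count was 3, and leaving out 1 library gave 0 to 1. For 7.5 against 5 µM the counts were 4 with the block, 6 with RLE factors and 7 in DESeq2, and 0 to 10 with 1 library left out. The slope had 1 in blocked DESeq2, against 812 of 18709 genes. Over all genes, DESeq2 against hPSC called 4400 of 19672 at 0.7 µM and 3537 at 7.5 µM. Against hPSC, DESeq2 called 4 members at each dose, the block 10 at each dose, and the fit without replicate 1 at 0.7, 3 and 5 µM 10 at each dose; leaving out 1 library gave 0 to 4 at 0.7 µM and 0 in each case at 7.5 µM. For day 30 against day 16 the blocked count was 0 and leaving out 1 library gave 0 to 9. In the replicate comparison 16 to 26 members passed over the settings run. With length and GC offsets 16 passed, as did 8823 of 18709 genes. With only 0.7, 3 and 5 µM 26 passed, as did 11848 of 17832 genes. Reversed values were MDM2 in the replicate comparison with length and GC offsets (0.41), CDKN1A at 0.7 µM against hPSC without 0.7 µM replicate 2 (-0.21, and 2.41 without 0.7 µM replicate 1) and SESN2 at 7.5 µM against hPSC without 7.5 µM replicate 1 (-0.13, and 1.69 without 7.5 µM replicate 2). The cause was not tested. Where a left-out library leaves 1 in a group, it is assumed to vary like the other groups. With 2 libraries a group, only large differences could pass.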
